A study of Caenorhabditis elegans with 2 samples.

Results

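The 7 genes described here belong to innate immune signalling in Caenorhabditis elegans. They were looked up in a list of genomic sites called for the transcription factor ATFS-1, and 3 of the 7 had a peak, where 3.63% of all protein-coding genes had one. The 3 were tir-1, the adaptor at the top of the p38 MAP kinase cascade, vhp-1, a phosphatase that acts on its kinase, and hlh-30, a transcription factor of host defence and autophagy. The kinase genes nsy-1, sek-1 and pmk-1 and the transcription factor gene atf-7 had no row. A gene was counted when its symbol, with letter case ignored, stood in the gene-name field of a peak, and the list held 1005 peaks in all.

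The list came from chromatin immunoprecipitation with sequencing (ChIP-seq) on lysates of whole wild-type worms. Animals of both groups were wild type, were raised from eggs on food with spg-7(RNAi), which silences the gene of a mitochondrial protease, and were taken at the L4 larval stage after about 48 h. One library was prepared with an antibody against ATFS-1 and 1 without antibody, so no value has a replicate and no difference could be tested. Both groups were under the same RNAi, so the list holds no comparison with unstressed worms. A whole-worm lysate does not show in which tissue a site was occupied, and genomic DNA gives no expression level by which the tissue could be checked.

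ATFS-1 is a bZIP transcription factor that is imported into healthy mitochondria and acts in the nucleus when import falls, where it drives the mitochondrial unfolded protein response. In worms the p38 cascade is a main pathway of defence in the intestine, epidermis and neurons. TIR-1, the worm orthologue of SARM1, has a TIR domain and activates the kinase NSY-1, which phosphorylates SEK-1, which phosphorylates the p38 kinase PMK-1. PMK-1 in turn acts on ATF-7, and HLH-30, the orthologue of mammalian TFEB, runs a separate programme of host defence, autophagy and lysosomal genes.

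The antibody library held 10992796 tags (mapped reads) after the caller had kept at most 1 tag per position, and the control held 10583049. Spread evenly over the effective genome size given to the caller, the antibody library would have 122.1 tags per kb. Duplicates were 40.0% of the antibody tags and 20.3% of the control tags. By the file header the antibody and the control library sat in folders of separate sequencing projects, and an effect of the project cannot be told apart from one of the antibody. Of the peaks, 74 carried no gene name, and how names were given is not stated in the sources used here. All tags, folds, scores and false discovery rates below are the authors' own values from their peak caller. Positions are printed as deposited, and no source used here names their genome build.

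At the head of the cascade, tir-1 had 1 peak, on chromosome III from 3872081 to 3877520, and no other gene was named there. This peak of 5440 bp held 1618 antibody tags (95% exact Poisson interval 1540 to 1699, counting error only). Fold enrichment, the caller's ratio of antibody signal to the level expected from the control, was 6.56, or 2.01 times the median of the list, 3.26. Its score, read as 10 times the negative log10 of the caller's p-value, was 1724.4 against a median of 135.6. The peak was thus high on each of these measures: 57 of the 1005 peaks had a higher fold, 25 a higher score and 18 more tags, and 19 were longer. Per length it stood lower, with 297 tags per kb, exceeded at 70 peaks, which is 2.44 times the evenly spread level. The caller's false discovery rate, an estimate from swapping the libraries, was 3.7%, and 32 peaks of the list were at 5% or less. On chromosome III it ranked 8 of 187 peaks by fold.

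The tir-1 summit lay 4219 bp from the lower coordinate of the peak, at 77.6% of its length. Another peak lay close to the lower end of the tir-1 peak. It was named for rpl-3, a protein of the large ribosomal subunit, ran from 3867003 to 3869884 with 737 tags at 7.20-fold, and ended 2196 bp before the tir-1 peak began. Of the 999 gaps between neighbouring peaks on a chromosome, 62 (6.21%) were that short or shorter, and the median gap was 59396 bp. In the order of the RefSeq gene table, rpl-3 is the protein-coding gene next to tir-1. Beyond the upper end the next peak, named F37A8.5, was 75416 bp away (3.28-fold, 203 tags). Whether the tir-1 peak lies in its promoter, an exon or an intron was not analysed here.

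None of the genes of the kinases below TIR-1 was named at a peak. nsy-1 encodes the MAP kinase kinase kinase of the ASK family, sek-1 the MAP kinase kinase and pmk-1 the p38 kinase. In gene order, the nearest protein-coding gene named at a peak was 11 genes from nsy-1 (pho-12), 18 from sek-1 (dct-1) and 27 from pmk-1 (rig-4). For all protein-coding genes without a peak this distance had a median of 10 genes (quartiles 4 and 21), so pmk-1 lay beyond the upper quartile and nsy-1 and sek-1 inside the quartiles. pmk-1 is transcribed in an operon with the p38 genes pmk-2 and pmk-3, and these had no row either. Peaks without a gene name numbered 4 on chromosome II, which carries nsy-1, 33 on X, which carries sek-1, and 19 on IV, which carries pmk-1. A missing row therefore means that no peak of the list bears the name, and signal under the caller's cutoff of 1e-05 was not analysed here.

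vhp-1 encodes a dual-specificity phosphatase that removes the activating phosphates from PMK-1 and from the JNK-like kinase KGB-1. Its peak was small, on chromosome II from 5332362 to 5333457, 1096 bp long, with 202 tags (interval 175 to 232). Fold enrichment was 3.05, under the median of the list, and 596 peaks had a higher fold. The score of 61.7 was near the lowest in the list, 50.06, and 122 peaks scored lower. At 184 tags per kb it reached 1.51 times the evenly spread level, and its false discovery rate was 7.72%, against a median of 7.55%. The peaks on either side were 149282 bp and 45011 bp away, named C27D6.4 (2.82-fold) and, at 1 peak, pkc-3 and prdx-1 (2.32-fold).

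Of the transcription factor genes, atf-7 had no row. ATF-7 is a bZIP factor that represses immune genes until PMK-1 phosphorylates it. Its nearest named gene in gene order was cct-5, a chaperonin subunit, 2 genes away, and 3 peaks on its chromosome, III, had no gene name.

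hlh-30 had 1 peak, on chromosome IV from 4026822 to 4028879, and no other gene was named there. Its 2058 bp held 412 tags (interval 373 to 454) at 3.47-fold, 1.06 times the median fold of the list. The score was 206.14, with 371 peaks higher, and the false discovery rate was 7.8%. That rate was just above the upper quartile of the list, 7.76%. By fold this is a peak of the middle of the list, with 418 peaks at a higher fold and 582 at a lower one. Tags per kb came to 200, just under the median of 204 and 1.64 times the evenly spread level. Its summit lay at 73.1% of its length, 1505 bp from the lower coordinate. The neighbouring peaks were named pcn-1, the sliding clamp of DNA replication, 20014 bp away (2.68-fold), and F37C4.5, 153587 bp away (2.55-fold).

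The 3 peaks kept the same order, tir-1, hlh-30 and vhp-1, by fold, score, tags, length and tags per kb. By false discovery rate, tir-1 (3.7%) was again first, but vhp-1 (7.72%) was slightly lower than hlh-30 (7.8%). The tir-1 peak held 3.93 times the tags of the hlh-30 peak in 2.64 times its length, and 8.01 times those of the vhp-1 peak in 4.96 times its length. Per kb the tir-1 peak held 1.49 and 1.61 times as many tags. hlh-30 exceeded vhp-1 by 1.14 times in fold and 1.09 times in tags per kb. The counting intervals of the tags of the 3 peaks did not overlap, but the regions differ in length and the spread between libraries is unknown.

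**Figure D1:**
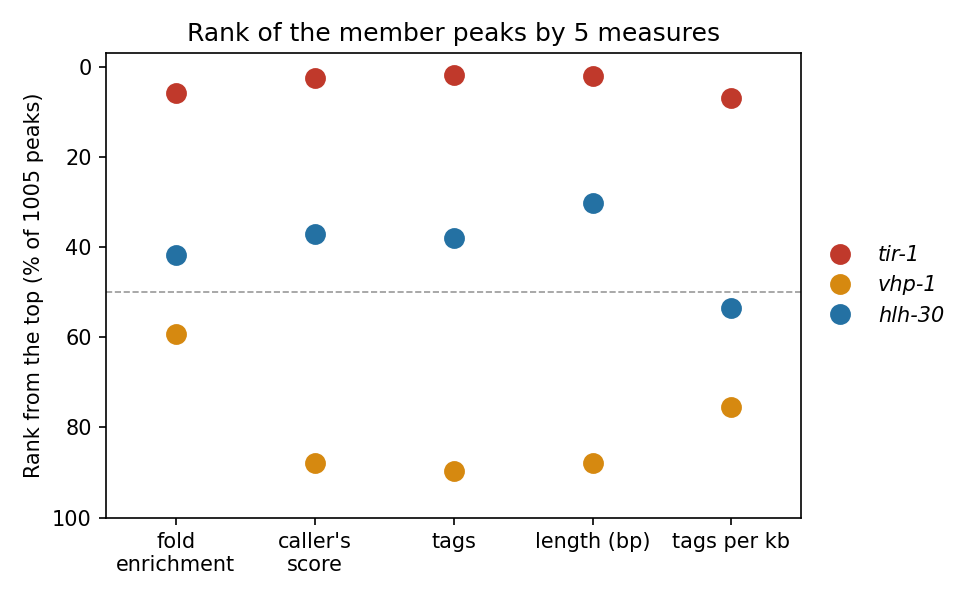
Rank of the tir-1, hlh-30 and vhp-1 peaks among the 1005 peaks by 5 measures on the x axis, as a percentage from the top of the list on the y axis, with the dashed line at the middle of the list. The tir-1 points lie between 1.89% and 7.06%, those of hlh-30 between 30.1% and 53.6% and those of vhp-1 between 59.4% and 89.7%.

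The peaks nearest to tir-1 in fold were those of haf-3 above it (6.59-fold, 409 tags) and F44E5.4 below it (6.55-fold, 421 tags). Both held far fewer tags than the 1618 of tir-1, but both were also far shorter than its 5440 bp. The haf-3 peak ran from 15765689 to 15767187 and that of F44E5.4 from 11758760 to 11760176. Tags per kb were not compared for these peaks. hlh-30 shared its fold of 3.47 with ife-3 (318 tags), eft-4 (699 tags), Y56A3A.28 (291 tags) and 1 peak without a name (263 tags), between tba-2 at 3.48 and the peaks of mog-4 and ckb-3 at 3.45. vhp-1 shared 3.05 with unc-116 (324 tags) and a peak listed as WDR-23 (195 tags). Likeness here is in 1 value of 1 pair of libraries.

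**Figure D2:**
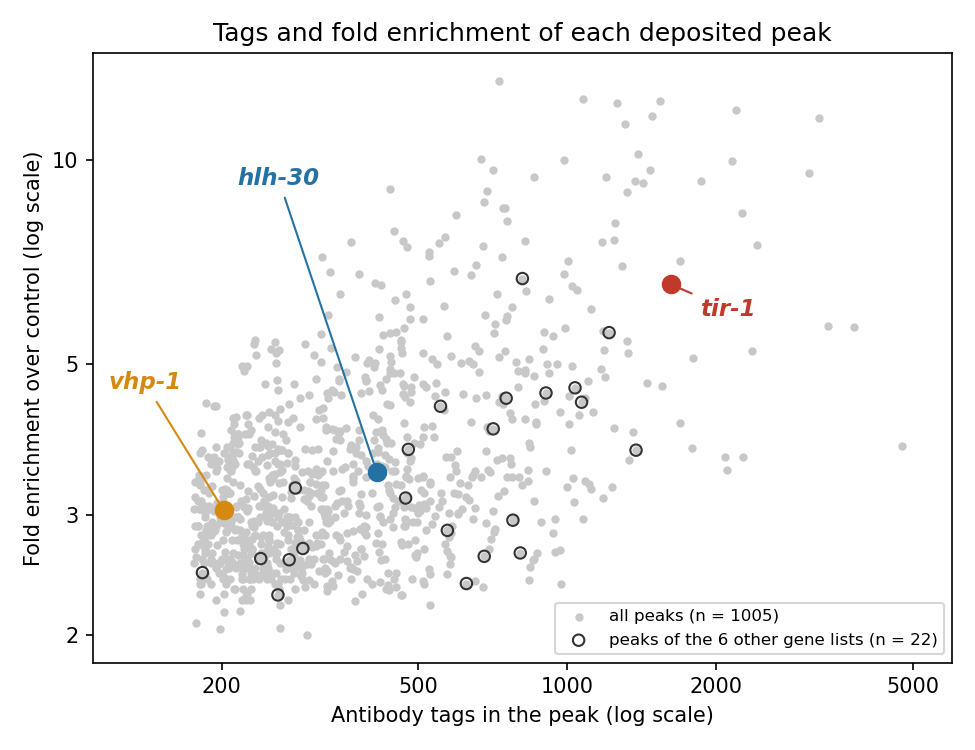
Each point is 1 of the 1005 peaks, with antibody tags on the x axis and fold enrichment over the control on the y axis, both on log scales, and open circles mark the 22 peaks of 6 further gene lists. The tir-1 peak (1618 tags, 6.56-fold) lies to the right of all 22 open circles, hlh-30 (412 tags) lies amid the list and vhp-1 (202 tags) near its left edge. Tags are not scaled to peak length.

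The count of members is read against how often any gene was named. Of 19971 protein-coding nuclear genes in the RefSeq table of assembly WBcel235, 724 (3.63%) had their symbol at a peak on their own chromosome. With locus names and synonyms accepted as well, 902 (4.52%) were named at one. The members were chosen with results of this list known, so 3 of 7 supports nothing by itself. Among the 32 peaks whose false discovery rate was at most 5%, tir-1 alone of the 7 was named, beside 0.125% of all genes. In the upper part of the list by score 2 of the 7 were named, tir-1 and hlh-30, beside 1.87% of all genes, and in the upper part by fold the same 2, beside 1.86%. All 3 were named at peaks with a single gene name, where 2.93% of all genes were. A further 6 lists of the same biology, also chosen with earlier results of these data known, held 142 genes that the table knows. Of these genes 21 (14.8%) had a peak, and this share, like that of each list below, supports nothing by itself. Their 22 peaks had a median fold of 3.24, beside 3.26 for all peaks. Only the peak of skn-1 exceeded that of tir-1 in fold, and none of the 22 held more tags, the highest being 1376. Per kb, however, the peaks of zip-2 (335 tags), ftt-2 (332) and skn-1 (317) held more than that of tir-1 (297).

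Upstream of the cascade, 2 of 20 genes for signals and receptors had a peak, beside 3.63% of all protein-coding genes. nipi-3, a Tribbles-like pseudokinase of the epidermal response to fungal infection, had a long peak on X (4867 bp, 1376 tags, 3.74-fold). The false discovery rate of this peak was 8.93%. egl-30, the alpha subunit of a Gq protein, had 2 peaks on chromosome I, with 905 tags at 4.54-fold and 240 tags at 2.59-fold. The other 18 had no row, among them tol-1, the Toll-like receptor gene, and unc-43, the CaMKII gene that acts before TIR-1 in olfactory neurons.

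Where 3.63% of all protein-coding genes had a peak, 4 of 24 genes in other MAP kinase modules had one, all of modest fold. They were mek-1, a stress-activated MAP kinase kinase (3.29-fold, 282 tags), lit-1, a Nemo-like kinase (3.18-fold, 471 tags), dlk-1, which acts above PMK-3 in neurons (2.85-fold, 572 tags), and mek-2, the kinase of the ERK pathway (2.38-fold, 625 tags). Their median fold was 3.02. With locus names accepted, sek-3, another MAP kinase kinase gene, was added as ZC449.3 (4.02-fold, 334 tags).

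Other transcription factors of the immune response had a peak at 5 of 23 genes, beside 3.63% of all protein-coding genes. skn-1, the Nrf-type factor that PMK-1 phosphorylates under oxidative stress, had the highest fold (6.69-fold, 811 tags, score 1142.48), at a false discovery rate of 10.4%. zip-2, a bZIP factor of the response to pathogens that block translation, followed by fold but was higher by tags and score (4.40-fold, 1068 tags, score 1329.29). The false discovery rate of the zip-2 peak was 9.76%. pqm-1, a zinc-finger factor (2.95-fold, 776 tags), hif-1, the hypoxia factor (2.68-fold, 292 tags), and daf-16, the FOXO factor of insulin signalling (2.29-fold, 260 tags), lay under the median fold of the list. Locus names added cebp-1, a C/EBP factor listed as D1005.3 (4.47-fold, 653 tags), and zip-11, listed as W08E12.1 (3.40-fold, 280 tags).

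No immune effector gene was named at a peak. The list of 31 held lysozymes, C-type lectins, saposin-like proteins, antimicrobial peptides and infection response genes, among them irg-1, lys-7, clec-60 and nlp-29, and 0 of 31 had a row, also with locus names. At the 3.63% seen over all genes, few rows would be found among so few genes, and the difference from the other lists was not tested.

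**Figure D3:**
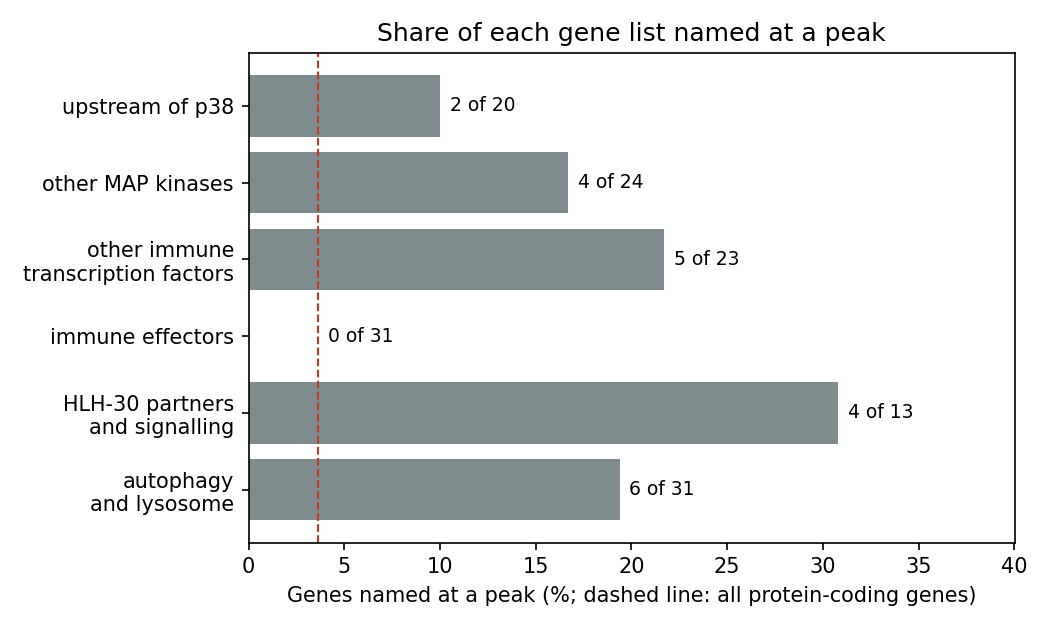
Share of the genes of each of 6 lists that were named at a peak, in percent on the x axis, with the number of genes beside each bar, and the dashed line at 3.63%, the share over all protein-coding genes. The bar of immune effectors is at 0 of 31, and the highest is that of HLH-30 partners and signalling, 4 of 13. The lists were chosen with earlier results of these data known.

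Around hlh-30, 4 of 13 genes for its partners and upstream signalling had a peak, each at a higher fold than hlh-30 itself. Among all protein-coding genes the share was 3.63%. ftt-2 (5.57-fold, 1214 tags, false discovery rate 2.94%) and par-5 (4.46-fold, 752 tags) encode the worm's phosphoserine-binding adaptor proteins of the family that holds TFEB in the cytoplasm in mammals. mxl-3 encodes a Max-like factor that represses lysosomal lipase genes in fed worms, where HLH-30 activates them on fasting, and had 554 tags at 4.34-fold. mxl-2, the gene of the Mlx-like partner of MML-1, had 1036 tags at 4.62-fold. The genes of the TOR kinase, let-363, and of the export receptor XPO-1, xpo-1, had no row.

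HLH-30 is known to activate autophagy and lysosomal genes, but which of the genes listed here are its targets was not analysed. Of 31 autophagy and lysosome genes in the table, 6 had a peak. The share over all protein-coding genes was 3.63%. lgg-1, one of the ubiquitin-like proteins of the autophagosome membrane, had the highest fold of the 6 (4.02-fold, 708 tags), while cpl-1 held the most tags. atg-7, the activating enzyme for that protein, shared a 3.75-fold peak of 477 tags with the ubiquitin-conjugating enzyme gene let-70. The others were cpl-1, a cathepsin (2.64-fold, 803 tags), lgg-2 (2.61-fold, 679 tags), bec-1, the Beclin gene (2.58-fold, 274 tags), and unc-51, the kinase that starts autophagy (2.47-fold, 183 tags). The scores of bec-1 (53.27) and unc-51 (53.44) were close to the lowest of the list. The median fold of the 6 was 2.63, under that of all peaks. sqst-1, the p62 receptor, was added by its locus name T12G3.1 and then exceeded lgg-1 in fold and cpl-1 in tags (4.03-fold, 1242 tags), and atg-11, whose symbol the table does not hold, had a 3.31-fold peak of 237 tags.

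**Figure D4:**
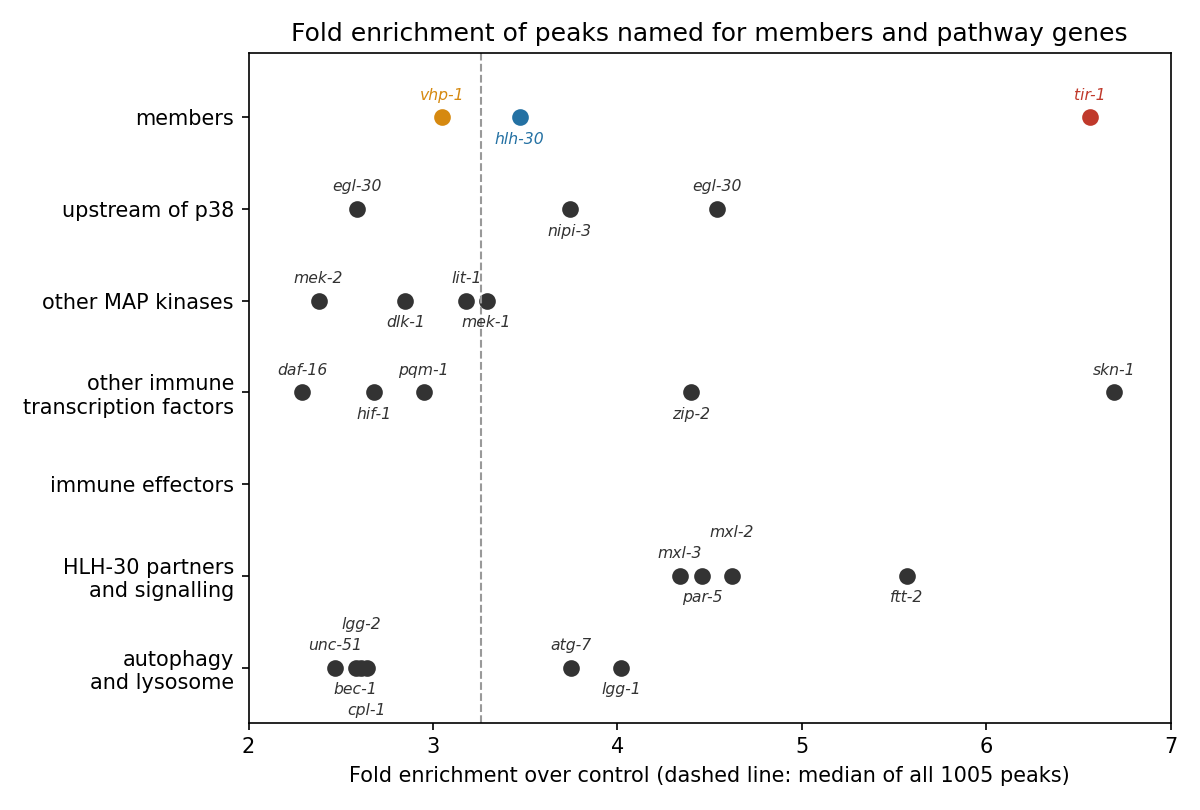
Fold enrichment over the control on the x axis of each peak named for a member or for a gene of the 6 other lists, 1 list per line, with the dashed line at 3.26, the median of all 1005 peaks. tir-1 (6.56) and skn-1 (6.69) stand apart on the right, and the 4 genes around HLH-30 lie between 4.34 and 5.57.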

How the data were processed

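One peak list was analysed, made from 1 antibody and 1 no-antibody library. Per the file headers, the authors called peaks with MACS 1.4.2 on single libraries at a p-value cutoff of 1e-05, keeping at most 1 tag per position. The submitters' processing notes name BWA 0.7.5, Picard and MACS 1.4. Per the labels' protocols, chromatin was cross-linked with 11% formaldehyde and sheared to 500 to 1000 bp. For each peak the deposited list gives the count of antibody tags, the fold enrichment (a ratio), a false discovery rate in percent and a score. The heading of the score column was lost, so its meaning was read from the column order and its smallest value.

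Names were split at "/" and matched, case ignored, to RefSeq symbols on the same chromosome, in pandas 2.3.3 with Python 3.11.15 (SciPy 1.17.1 for intervals, matplotlib 3.10.9 for plots). The matching was tested on simulated data. Named were all 7 members, every listed gene with a row, and the nearest peaks by position and by fold, those beside vhp-1 in fold only in part because many tie. Members and lists were chosen with earlier results of these data known. Alternatives were stricter peak sets, single-name peaks, locus names with synonyms, and other ranking measures. Sequence and motifs were not analysed here.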

Additional observations from a re-analysis of the deposited data

How the results depend on the processing

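With only the 32 peaks whose false discovery rate was at most 5%, 1 of the 7 members, tir-1, and 1 gene of the 6 other lists, ftt-2, had a peak, against 0.125% of all protein-coding genes. In the upper part of the list by score or by fold, from the median up, tir-1 and hlh-30 remained and vhp-1 did not, and the other lists had 16 and 11 genes, beside 1.87% and 1.86% of all genes. With single-name peaks, or with locus names and synonyms accepted, the 3 members remained. The other lists then had 20 and 25 genes, beside 2.93% and 4.52% of all genes. The tir-1 peak ranked at 5.77% from the top by fold, 2.59% by score, 1.89% by tags, 7.06% by tags per kb and 4.28% by fold on its chromosome. hlh-30 ranked at 41.7% by fold, 37.0% by score, 37.9% by tags, 53.6% by tags per kb and 43.6% on its chromosome. vhp-1 ranked at 59.4% by fold, and at 87.9%, 89.7%, 75.5% and 54.0% by the same measures, chosen for it after seeing the data. The cause of these shifts was not tested. The promoter motif search was not run, since no sequence was used here. No paired analysis was possible because there is 1 library with and 1 without antibody, and neither could be left out.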

Other observations

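HLH-30 belongs to the basic helix-loop-helix family. Of 25 genes with an hlh symbol in the gene table, 3 had a peak, beside 3.63% of all protein-coding genes. They were hlh-30, which prompted the lookup, and 2 others. hlh-27, a gene of the REF-1 family, had 441 tags at 5.04-fold on chromosome II (5542996 to 5544757), and hlh-11, at a peak shared with hcp-3, had 493 tags at 2.76-fold on III (9618601 to 9620736). This family was looked up after the list had been seen, and nothing was tested.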
